A study of Homo sapiens with 9 samples.

Results

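Glycolytic enzymes and targets of the hypoxia-inducible factors (HIF) were followed in human embryonic stem cell cultures. These had been turned towards neuroepithelium and then bent or left flat. The set held 39 genes taken by symbol from a table of 62710 genes: 17 glycolytic enzymes, and 22 other members, which were 2 glucose transporters, 3 regulators of glucose metabolism and 17 other HIF targets. All 39 were measured and all 39 were among the 23075 genes that passed the filter on low counts. The ranking below sets the library concave 1 against the other 8 libraries, because that is how the set was defined, so it is given as a description without a test.

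The cells were wild-type (WT) H9, an established line of human embryonic stem cells. Every culture stood on a PDMS (silicone) plate coated with Matrigel, spent 72 hours in the pluripotency medium mTeSR1, and then 48 hours in N2B27 with the dual SMAD inhibitors SB431542 and LDN, which turn pluripotent cells towards neuroepithelium. For a further 24 hours under the same inhibitors the plate was curved into a concave shape (3 libraries), curved into a convex shape (3 libraries) or kept flat as the control (3 libraries). The libraries of each shape are numbered 1 to 3 in the labels; nothing in them says that the libraries came from separate cultures, so the p-values below measure only the spread between these libraries. The labels list no change of oxygen supply for any group, and all libraries came from 1 cell line.

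When oxygen is scarce, the prolyl hydroxylases of the EGLN family stop marking the HIF alpha subunits for destruction, and the stabilised factors switch on genes that carry the core letters of the hypoxia response element in their control regions. The targets move a cell towards glycolysis: more glucose enters, pyruvate is kept out of the mitochondria and is turned into lactate. Pluripotent stem cells already run a high rate of glycolysis under ordinary culture, and several of its enzymes are abundant whatever the oxygen level.

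Some libraries stood apart before any comparison. Totals ran from 49420082 counts in flat 2 to 64763412 in concave 1. Flat 2 leaned towards short transcripts: the count-weighted median length of its transcripts was 2402 bases, against 2778 to 3062 bases in the other 8 libraries. The libraries numbered 3 also differed from those numbered 1 and 2 across the 3 shapes, with 2028 genes higher and 2109 lower at an edgeR adjusted p under 0.05. That comparison was chosen after these libraries were seen to stand apart, and its p-values do not allow for the choice. Mitochondrial genes took 6.57% of the counts in concave 1 and 5.7% to 10.5% in the others. In bulk RNA of this kind, a change in the share of cells that express a gene and a change in RNA per cell cannot be told apart.

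Concave 1 held the highest level of most of the set. Of the 22 members that are not glycolytic enzymes, 20 were highest in concave 1, and 6 of the 17 enzymes were; together that is 26 of 39, where 11.2% of all tested genes were highest in that library. No member was lowest there (11.8% of all tested genes), and 0 were at least 1.5-fold below the median of the other 8 (7.79%). At least 1.5-fold above the median of the other 8 libraries were 21 of the 22 and 5 of the 17 (12.0% of all tested genes), at least 2-fold above were 19 and 4 (4.29%), and at least 4-fold above were 10 and 0 (0.438%). The median over the enzymes was 0.45 on the log2 scale, with a range of -0.12 to 1.99. Over the 22 other members it was 1.79, with a range of 0.58 to 5.07, and over all tested genes 0.01.

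**Figure D1:**
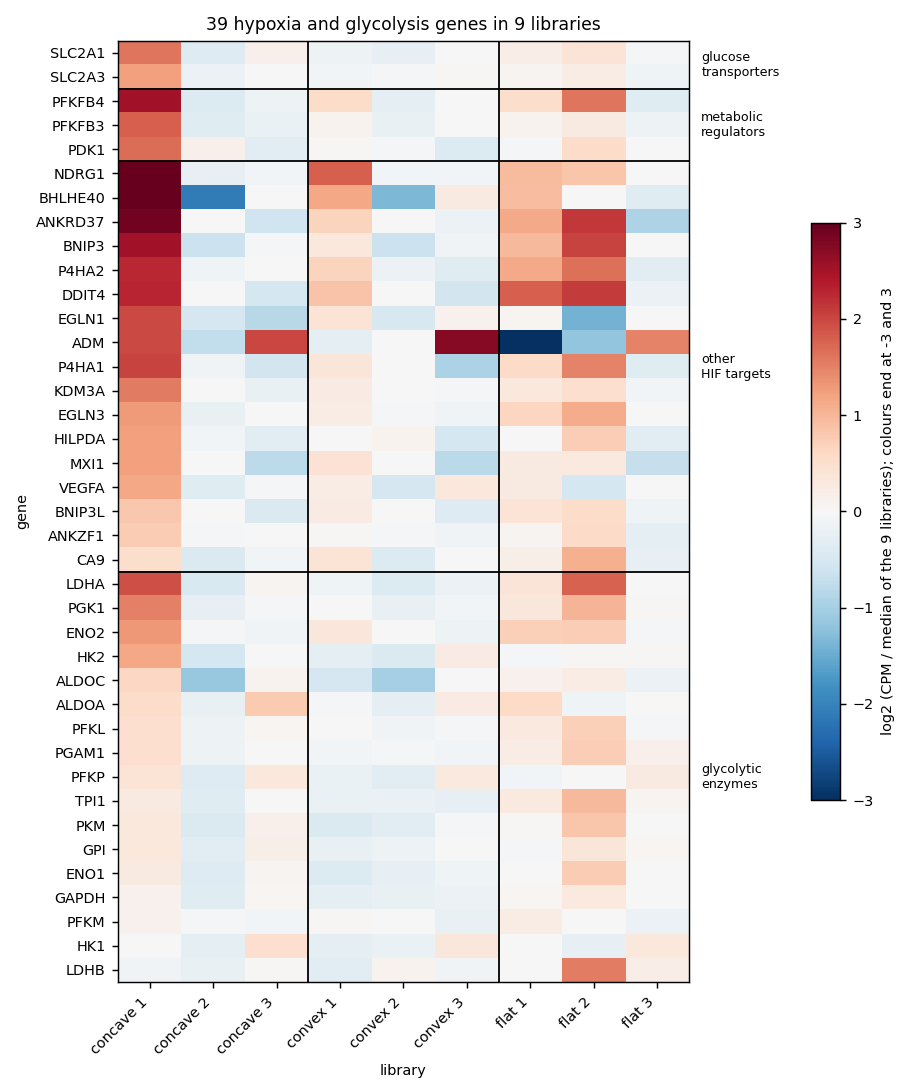
Level of each of the 39 genes (rows, grouped by role) in each of the 9 libraries (columns, grouped by plate shape), as log2 of CPM over the median CPM of the 9 libraries, with colours ending at -3 and 3. The column of concave 1 is red for nearly all transporters, regulators and other HIF targets, while the enzymes below PGK1, ENO2 and HK2 are pale, and flat 2 is the next reddest column.

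The response element has the core ACGTG or GCGTG, so the 250 bases before each RefSeq transcription start (GRCh38.p14) were searched for these letters on both strands; CACGTG reads as a match on each strand. RefSeq windows were found for 33 of the 39 genes, 58 windows in all; NDRG1, HILPDA, BNIP3L, ANKZF1, VEGFA and SLC2A3 had none. At least 1 match was present in 35 of the 58 windows (60.3%), against 15172 of all 35116 windows of this length (43.2%). By gene it was 27 of 33 (81.8%), against 12945 of 27305 (47.4%). Members had more windows per gene than all genes did, which by itself raises their share by gene. The enzymes held a match in 51.4% of windows but 82.4% of genes, the other members in 76.2% and 81.2%. Among members at least 1.5-fold up in concave 1, 23 of 28 windows held a match (82.1%), and among the rest 12 of 30 (40.0%), which include 7 windows each of PFKM and HK1. Counted by gene the difference was small: 18 of 21 (85.7%) against 9 of 12 (75.0%). A match is a run of letters, and binding was not measured. The 2 sites and 5 stretches below are shown as examples, 6 from genes high in the ranking with matches and LDHB, at the bottom, without. The ranking and the matches did not always go together: the windows of P4HA2 and SLC2A1 held 0 matches, while that of GAPDH held 2. The short ones lie inside an annotated exon; the others are the part of the window outside annotated exons (GENCODE v29). All are read 5′ to 3′ in the direction of the gene, and capitals mark the matches.
BHLHE40, chr3:4979187-4979207 (plus strand): tccaaCACGTGagactcatgt
ANKRD37, chr4:185396669-185396694 (plus strand): cgccgggctcCACGTGccagtgtttg
DDIT4, chr10:72273674-72273919 (plus strand): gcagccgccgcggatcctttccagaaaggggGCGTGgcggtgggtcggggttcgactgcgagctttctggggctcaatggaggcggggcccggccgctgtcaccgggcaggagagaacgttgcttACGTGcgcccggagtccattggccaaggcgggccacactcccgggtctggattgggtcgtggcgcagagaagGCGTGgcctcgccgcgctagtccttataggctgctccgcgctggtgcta
BNIP3, chr10:131982014-131982173 (minus strand): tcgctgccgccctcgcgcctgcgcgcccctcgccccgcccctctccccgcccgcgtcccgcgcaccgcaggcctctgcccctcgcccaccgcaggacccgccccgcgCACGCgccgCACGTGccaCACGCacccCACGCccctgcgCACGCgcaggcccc
LDHA, chr11:18394313-18394387 (plus strand): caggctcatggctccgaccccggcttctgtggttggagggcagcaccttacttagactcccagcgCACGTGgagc
PGK1, chrX:78103998-78104173 (plus strand): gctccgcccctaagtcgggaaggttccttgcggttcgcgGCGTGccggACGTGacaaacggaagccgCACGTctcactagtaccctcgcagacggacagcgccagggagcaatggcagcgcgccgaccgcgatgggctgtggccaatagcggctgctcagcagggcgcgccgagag
LDHB, chr12:21657972-21658092 (minus strand): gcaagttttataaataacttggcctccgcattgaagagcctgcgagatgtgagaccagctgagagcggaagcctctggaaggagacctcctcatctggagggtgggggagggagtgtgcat
The BNIP3 stretch held 6 matches, those of DDIT4 and PGK1 3 each, that of LDHA 2, and that of LDHB 0. The whole LDHB window also held 0 matches, and that of LDHA held 5.

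NDRG1 and BHLHE40 led the ranking by a wide margin. NDRG1 (ENSG00000104419, on chromosome 8) encodes a cytoplasmic stress protein long used as a hypoxia marker. It had 62.7, 1.61 and 1.82 CPM (counts scaled to the size of the library) in concave 1, 2 and 3, 6.62, 1.81 and 1.81 CPM in convex 1, 2 and 3, and 3.71, 3.41 and 1.92 CPM in flat 1, 2 and 3. The level in concave 1 was 33.5-fold above the median of the other 8 libraries and 9.48-fold above the highest of them, convex 1. Its 4297 counts there give an exact Poisson 95% interval of 60.9 to 64.7 CPM, which covers counting error only. BHLHE40 (ENSG00000134107, chr3:4979116-4985323) encodes a basic helix-loop-helix repressor. It had 42.7, 0.368 and 1.57 CPM in concave 1, 2 and 3, 3.55, 0.620 and 1.92 CPM in convex 1, 2 and 3, and 3.02, 1.58 and 1.22 CPM in flat 1, 2 and 3. That was 27.1-fold above the median of the other 8 and 12.0-fold above the highest. Both genes separated concave 1 from every other library, including concave 2 and 3, and in both the next level was that of convex 1.

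**Figure D2:**
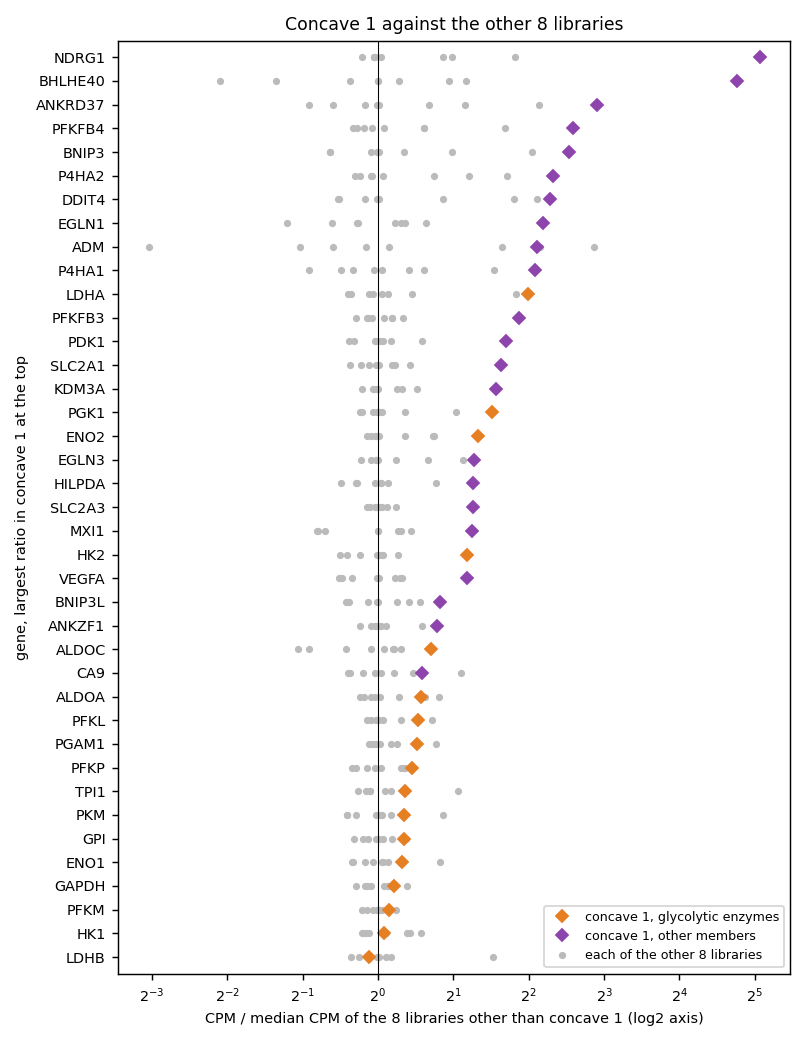
CPM in concave 1 (diamonds; orange for glycolytic enzymes, purple for other members) and in each of the other 8 libraries (grey points), each divided by the median of those 8, on a log2 axis, with genes ordered by the ratio in concave 1. NDRG1 (33.5-fold) and BHLHE40 (27.1-fold) lie far from their grey points, whereas the enzymes gather in the lower part and LDHB (0.919-fold) lies below 1.

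Several of the next targets were high in concave 1 and, less so, in flat 2. ANKRD37 (ENSG00000186352, chr4:185396021-185400628), which encodes an ankyrin-repeat protein, had 4.92, 0.659 and 0.435 CPM in concave 1, 2 and 3, 1.05, 0.651 and 0.581 CPM in convex 1, 2 and 3, and 1.46, 2.88 and 0.349 CPM in flat 1, 2 and 3. BNIP3 (ENSG00000176171, chr10:131966455-131982013), a receptor that marks mitochondria for autophagy, had 265.3, 29.5 and 45.3 CPM in concave 1, 2 and 3, 58.0, 29.6 and 42.8 CPM in convex 1, 2 and 3, and 90.5, 188.4 and 46.3 CPM in flat 1, 2 and 3. In both genes concave 1 was highest and flat 2 next, and concave 2 and 3 lay within the range of the convex libraries or below it. The ratio over the median of the other 8 was 7.51-fold for ANKRD37 and 5.80-fold for BNIP3, but over the highest of them only 1.71-fold and 1.41-fold. The related receptor BNIP3L had 144.3 CPM in concave 1 and 60.7 to 120.1 CPM in the other 8, or 1.77-fold.

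Collagen prolyl hydroxylases need oxygen to modify procollagen, and their alpha subunits followed the same order. P4HA2 (ENSG00000072682, chr5:132191838-132295315) had 44.3, 8.44 and 9.30 CPM in concave 1, 2 and 3, 14.8, 8.29 and 7.20 CPM in convex 1, 2 and 3, and 20.6, 29.1 and 7.51 CPM in flat 1, 2 and 3. P4HA1 had 171.2 CPM in concave 1 and 21.5 to 117.4 CPM elsewhere. Concave 1 was above flat 2 by 1.52-fold for P4HA2 and 1.46-fold for P4HA1. DDIT4 (ENSG00000168209, chr10:72273920-72276036), an inhibitor of the growth kinase complex mTORC1, had 648.3, 132.1 and 93.0 CPM in concave 1, 2 and 3, 241.2, 133.9 and 92.0 CPM in convex 1, 2 and 3, and 464.1, 575.0 and 117.7 CPM in flat 1, 2 and 3. Concave 1 stood 4.87-fold above the median of the other 8 but only 1.13-fold above flat 2, and flat 1 and convex 1 were also above the rest.

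Of the hydroxylases that sense oxygen for HIF, EGLN1 and EGLN3 are themselves HIF targets. EGLN1 (ENSG00000135766, chr1:231363751-231425044) had 13.8, 2.48 and 1.97 CPM in concave 1, 2 and 3, 4.69, 2.51 and 3.85 CPM in convex 1, 2 and 3, and 3.73, 1.31 and 3.51 CPM in flat 1, 2 and 3. Concave 1 was 4.57-fold above the median and 2.93-fold above the highest of the other 8, and flat 2 was the lowest of all 9. EGLN3 had 96.5 CPM in concave 1 and 34.2 to 87.1 CPM elsewhere, so it stood 2.42-fold above the median but 1.11-fold above flat 2. The histone demethylase KDM3A had 205.9 CPM in concave 1 and 59.6 to 99.3 CPM in the others, a gap of 2.07-fold to the highest. EGLN1 and KDM3A were thus clear of all other libraries by at least 2-fold, and EGLN3 lay close to flat 2.

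Secreted factors did not all follow. VEGFA, the main angiogenic growth factor, had 170.0 CPM in concave 1 and 52.4 to 94.1 CPM in the other 8, and flat 2 was the lowest. Adrenomedullin, a vasodilator peptide encoded by ADM, had 15.3, 2.33 and 15.6 CPM in concave 1, 2 and 3, 3.16, 3.89 and 25.9 CPM in convex 1, 2 and 3, and 0.429, 1.73 and 11.0 CPM in flat 1, 2 and 3. ADM was high in all 3 libraries numbered 3 and in concave 1, and although concave 1 was 4.34-fold above the median, concave 3 and convex 3 were higher still. The remaining targets gave smaller ratios. HILPDA, a lipid droplet protein, stood at 70.7 CPM in concave 1 and 20.9 to 50.3 CPM in the others. MXI1, an antagonist of MYC, stood at 24.5 CPM in concave 1 and 5.93 to 14.0 CPM in the others. ANKZF1, which works in ribosome quality control, was at 86.7 CPM in concave 1 and 42.5 to 75.5 CPM elsewhere, 1.72-fold above the median. CA9, a cell-surface carbonic anhydrase and often a sensitive hypoxia marker, was barely detected: 0.511 CPM in concave 1, 0.261 to 0.737 CPM in the other 8, and highest in flat 2. CA9 fell just short of the 1.5-fold line and was the only one of the 22 below it. Among the enzymes, ALDOC at 1.63-fold was the nearest above the line and ALDOA at 1.49-fold the nearest below.

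The glucose transporters and the regulators were high in concave 1 and stood clear of the other libraries. SLC2A1 (ENSG00000117394, chr1:42925375-42959176), the widespread glucose transporter of the plasma membrane, had 793.5, 198.3 and 290.9 CPM in concave 1, 2 and 3, 235.7, 218.9 and 260.1 CPM in convex 1, 2 and 3, and 300.4, 345.2 and 253.0 CPM in flat 1, 2 and 3. SLC2A3, a high-affinity transporter typical of neurons, had 449.1 CPM in concave 1 and 169.0 to 221.7 CPM in the other 8. Concave 1 was above the highest of the other libraries by 2.30-fold for SLC2A1 and by 2.03-fold for SLC2A3. PFKFB3 and PFKFB4 make and remove the sugar bisphosphate that activates phosphofructokinase. PFKFB4 (ENSG00000114268, chr3:48517684-48562015) had 141.6, 18.7 and 22.3 CPM in concave 1, 2 and 3, 36.1, 20.7 and 24.9 CPM in convex 1, 2 and 3, and 36.0, 76.0 and 19.4 CPM in flat 1, 2 and 3. PFKFB3 had 213.1 CPM in concave 1 and 47.3 to 73.3 CPM elsewhere, and PDK1, the kinase that shuts pyruvate dehydrogenase, had 157.6 CPM in concave 1 and 37.2 to 72.7 CPM elsewhere. The gap to the highest other library was 2.91-fold for PFKFB3, 2.17-fold for PDK1 and 1.86-fold for PFKFB4. A gap of at least 2-fold over every other library was seen for 8 of the 22 other members and for 0 of the 17 enzymes, beside 0.243% of all tested genes.

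Among the 17 enzymes, LDHA and PGK1 came first. LDHA (ENSG00000134333, chr11:18394388-18408425), the lactate dehydrogenase subunit that favours lactate, had 852.1, 163.6 and 236.2 CPM in concave 1, 2 and 3, 205.3, 167.3 and 196.9 CPM in convex 1, 2 and 3, and 293.1, 763.0 and 223.8 CPM in flat 1, 2 and 3. PGK1 (ENSG00000102144, chrX:77910739-78129296), phosphoglycerate kinase, had 1003, 297.2 and 346.4 CPM in concave 1, 2 and 3, 353.4, 303.0 and 333.9 CPM in convex 1, 2 and 3, and 450.6, 715.5 and 364.8 CPM in flat 1, 2 and 3. LDHA was 3.97-fold and PGK1 2.87-fold above the median of the other 8, and both were again next highest in flat 2, with LDHA only 1.12-fold apart. ENO2, the neuronal enolase, had 351.2 CPM in concave 1 and 126.8 to 235.2 CPM elsewhere (2.50-fold over the median). HK2, the inducible hexokinase, had 218.6 CPM in concave 1 and 67.5 to 115.6 CPM elsewhere (2.28-fold), and unlike LDHA it was not raised in flat 2, at 99.4 CPM. ALDOC, an aldolase typical of brain, was at 36.4 CPM in concave 1 and 10.8 to 27.7 CPM in the others.

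The other enzymes had smaller ratios. ALDOA had 30.6 CPM in concave 1 and 17.4 to 36.0 CPM in the other 8, so concave 1 lay inside their range. GAPDH, which oxidises glyceraldehyde phosphate, had 2089 CPM in concave 1 and 1480 to 2358 CPM in the others. ENO1, the widespread enolase, had 1968 CPM in concave 1 and 1246 to 2804 CPM in the others. GAPDH, ENO1, PKM and TPI1 were 1.16-fold to 1.28-fold above the median in concave 1, and all were highest in flat 2. PFKL, PGAM1 and GPI were likewise highest in flat 2. HK1, the constitutive hexokinase, was 1.06-fold above the median, with 178.9 CPM in concave 1 and 146.5 to 251.8 CPM in the others. LDHB (ENSG00000111716, chr12:21635342-21757857), the subunit that favours pyruvate, had 34.3, 31.4 and 37.7 CPM in concave 1, 2 and 3, 29.1, 40.0 and 34.1 CPM in convex 1, 2 and 3, and 36.9, 107.3 and 42.2 CPM in flat 1, 2 and 3. LDHB was the only enzyme below the median in concave 1, and flat 2 alone was far above the other 8 libraries.

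**Figure D3:**
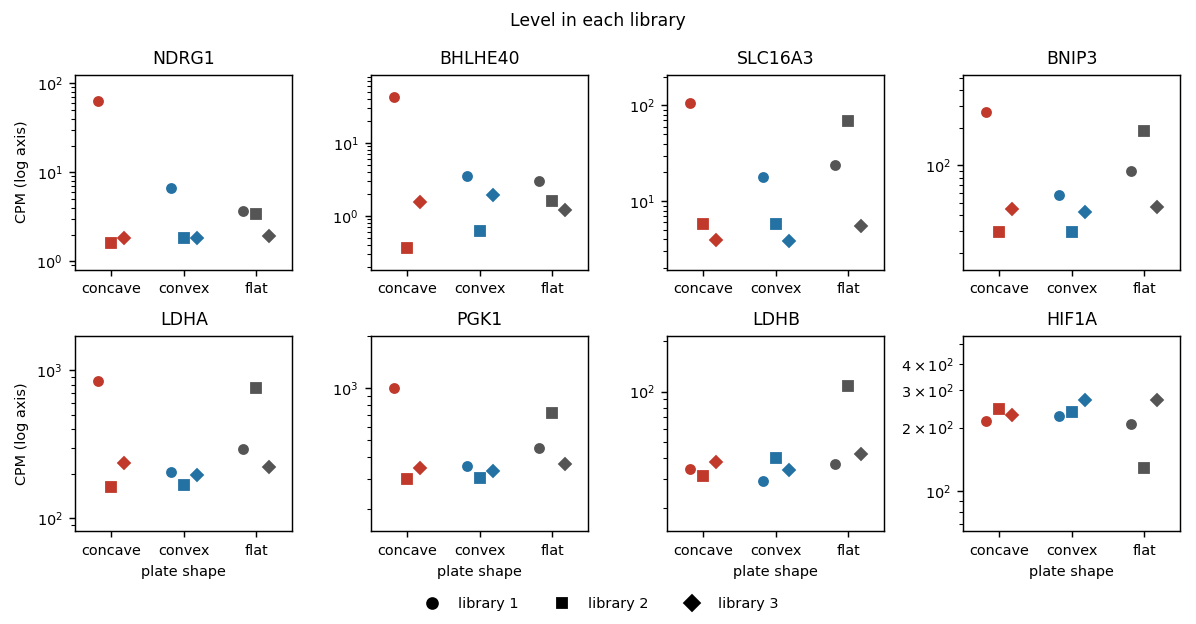
CPM (log axis, own range in each panel) of 8 genes by plate shape, 1 marker per library: circle for library 1, square for 2, diamond for 3. NDRG1 and BHLHE40 are high in concave 1 alone; SLC16A3, BNIP3, LDHA and PGK1 are high in concave 1 and flat 2; LDHB is high in flat 2 alone; HIF1A is not high in concave 1 (213.9 CPM).

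The balance between isozymes and paralogs differed in concave 1 for several families. Expressed per kilobase of the median annotated transcript, LDHA made up 94.8% of LDHA plus LDHB in concave 1 and 75.5% to 85.4% in the other 8 libraries. HK2 made up 43.3% of HK1 plus HK2 in concave 1 and 19.4% to 29.1% elsewhere, and ENO2 made up 12.6% of the 2 enolases against 5.75% to 10.4%. BNIP3 took 69.9% of BNIP3 plus BNIP3L in concave 1, against 31.2% to 66.4%, and EGLN1 took 5.17% of EGLN1 plus EGLN3, against 0.569% to 3.80%. SLC2A1 took 65.3% of the 2 transporters in concave 1, against 55.6% to 62.4%. In each of these 6 pairs concave 1 lay outside the range of the others. In other families the share lay inside that range: PFKP held 48.8% of the 3 phosphofructokinases in concave 1 and 40.5% to 55.0% elsewhere, P4HA1 held 77.7% of the P4HA pair in concave 1 and 73.0% to 82.0% elsewhere, and PFKFB4 held 45.4% of its pair in concave 1 and 30.7% to 56.4% elsewhere. Despite its higher share, ENO2 stayed the minor enolase in concave 1, with a level of 138 CPM per kilobase beside 954 CPM per kilobase for ENO1.

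Flat 2 was the other library with high levels. It was the highest library for 9 members, 8 of them enzymes, beside 27.7% of all tested genes, and the second highest for 19 members, 15 of them in the group of 22, beside 7.12% of all tested genes. Without concave 1, flat 2 was highest of the remaining 8 for 28 of 39 members, beside 29.2% of all tested genes. The list median in flat 2 over its own other 8 libraries was 0.72 (log2) for the enzymes and 0.58 for the other members, whereas in concave 1 it was 0.45 and 1.79. With each library corrected for transcript length, the medians in flat 2 were 0.54 for the enzymes and 0.77 for the other members, and those in concave 1 were 0.51 and 1.77. At the low end, concave 2 was the lowest of all 9 libraries for 21 members, beside 7.08% of all tested genes. Among the convex libraries, convex 1 was highest for 22 of the 39, beside 31.6% of all tested genes, and its medians were -0.25 for the enzymes and 0.30 for the other members. The summed CPM of the 22 other members was 3823 in concave 1 and ran from 1038 to 2208 in the other 8, flat 2 being the highest of these. The summed CPM of the enzymes was 9408 in concave 1, below the 10769 of flat 2.

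Plate shape itself gave no call for any member. On simulated counts the concave against flat test called 0% of 1.5-fold, 26% of 2-fold and 96% of 4-fold changes. The changed genes were drawn at random from those averaging at least 5 CPM, so these rates need not hold for the members. NDRG1, at a log2 fold change of 2.87 with a standard error of 1.23, was not called either. A lack of calls therefore excludes neither changes of 2-fold nor larger ones. Concave against flat cultures, edgeR's quasi-likelihood test called 0 of 39 members and 0.0% of all 23075 genes at an adjusted p under 0.05; 2 members and 1047 genes had an unadjusted p under 0.05, and DESeq2 called 0 members. Convex against flat, it called 0 members (0.0% of all genes), with 5 members and 2135 genes at an unadjusted p under 0.05. Concave against convex, it called 0 members (0.0% of all genes), with 0 members and 65 genes at an unadjusted p under 0.05. The F test over the 3 shapes called 0 members (0.0% of all genes), with 3 members and 897 genes at an unadjusted p under 0.05. DESeq2 also called 0 members in these 3, with 6, 3 and 2 members at an unadjusted p under 0.05, and 1 in concave against flat.

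For the leading genes the spread between concave libraries was larger than their mean. NDRG1 averaged 22.1 ± 35.2 CPM in concave, 3.42 ± 2.78 in convex and 3.01 ± 0.959 in flat libraries (SD, n = 3 each). Its log2 fold change over flat was 2.87 with a standard error of 1.23 (edgeR adjusted p = 0.841), and without concave 1 it was -0.82 with a standard error of 0.61. For BHLHE40 the fold change was 2.94 with a standard error of 1.35 (edgeR adjusted p = 0.841), and -1.02 with a standard error of 0.80 without concave 1. LDHB had the smallest p in that comparison, at -0.85 with a standard error of 0.35 (edgeR adjusted p = 0.841), and 2 of the 3 concave libraries were below all 3 flat ones. Most of that fall came from flat 2, at 107.3 CPM beside 36.9 and 42.2 CPM in flat 1 and 3. Without flat 2 the LDHB fold change was -0.19. Convex cultures gave the smallest p for TPI1, at -0.71 over flat with a standard error of 0.24 (edgeR adjusted p = 0.513). TPI1 had 547.8, 550.8 and 531.1 CPM in the 3 convex libraries and 767.9, 1230 and 664.6 CPM in the 3 flat ones. Without flat 2 the TPI1 fold change was -0.41.

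The direction of the set turned with 1 library. In concave over flat, the median log2 fold change was 0.39 for the 22 other members, with 18 of 22 above 0, and -0.03 for the enzymes, with 6 of 17 above 0; over all tested genes it was 0.01. Without concave 1 these were -0.47, with 1 of 22 above 0, and -0.45, with 2 of 17 above 0. Without flat 2, they were 0.62, with 22 of 22 above 0, and 0.04, with 11 of 17 above 0. For the 22 other members the median was 0.68 without either concave 2 or concave 3 and 0.11 without flat 3. With concave 1 and flat 2 both left out, a choice made after seeing the data, the medians were -0.34 for the 22 other members and -0.18 for the enzymes. In convex over flat, where concave 1 plays no part in the means, the medians were -0.33 for the 22 and -0.43 for the enzymes, and without flat 2 they were -0.07 and -0.26, with 0 of 17 enzymes above 0 either way. In concave over convex, 22 of 22 other members and 17 of 17 enzymes were above 0, with medians of 0.76 and 0.22; without concave 1 they were -0.22, with 3 of 22 above 0, and 0.06, with 14 of 17. These comparisons share libraries, so their values are not independent of each other.

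**Figure D4:**
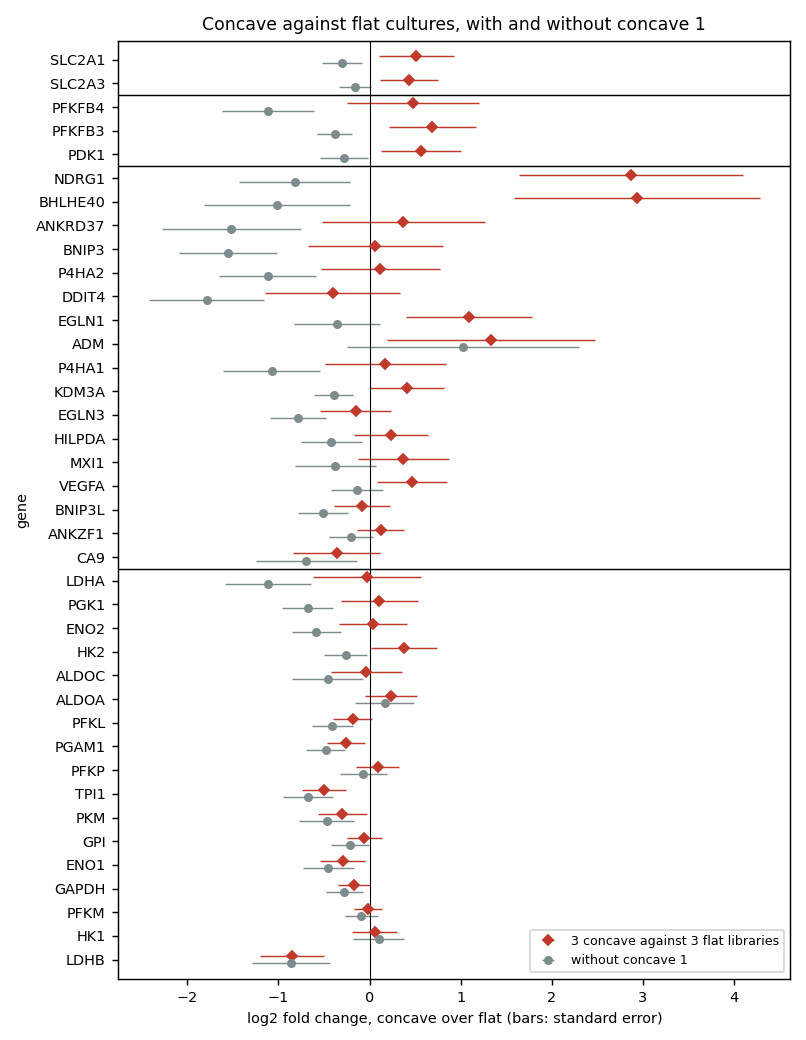
log2 fold change of each member, concave over flat, from the fit with 3 concave and 3 flat libraries (red diamonds) and from the fit without concave 1 (grey circles), with standard errors as bars, grouped by role. For the 22 other members the median is 0.39 with concave 1 and -0.47 without it, and ADM is the member of that group that stays above 0.

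Within each number, concave over flat gave a median of 1.33 for the 22 other members between the libraries numbered 1, -0.81 between those numbered 2 and -0.02 between those numbered 3. For the enzymes the same 3 medians were 0.26, -0.86 and 0.07. Concave over convex gave 1.57, -0.02 and -0.01 for the other members and 0.61, -0.10 and 0.15 for the enzymes. Each number has 1 library per shape, so these values carry no error.

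The libraries numbered 3, set against those numbered 1 and 2 across the 3 shapes, gave calls among the members. This comparison was chosen because these libraries had stood apart in earlier results of the same data, so no p-value here allows for that choice. By edgeR's quasi-likelihood test, 2 members were higher, beside 8.79% of all tested genes, and 4 were lower, beside 9.14%. Of the 39 members, 2 are a smaller share than over all genes and 4 a similar one, so these counts are not particular to the set. ADM rose by 2.43 (log2, standard error 0.62, adjusted p = 0.0267) and HK1 rose by 0.54 (standard error 0.11, adjusted p = 0.0126). MXI1 had 5.98, 5.93 and 6.37 CPM in concave 3, convex 3 and flat 3, against 10.3 to 24.5 CPM in the 6 libraries numbered 1 and 2, and fell by 1.16 (standard error 0.22, edgeR adjusted p = 0.00778). DDIT4 fell by 1.65, BNIP3L by 0.66 and P4HA1 by 1.47 (edgeR adjusted p = 0.0232, 0.0241 and 0.0364). HK1 had 251.8, 226.8 and 221.9 CPM in concave 3, convex 3 and flat 3, against 146.5 to 181.7 CPM in the other 6. The count of 6 members is not firm, since it was 0 without convex 3, 2 without concave 1, concave 3 or convex 1, 3 without convex 2 or flat 3, and 11 without concave 2. Pluripotency genes (9 of 12 higher) and early neuroectoderm genes (8 of 11 lower) moved in the same comparison, and their part in the members' change was not tested.

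Further HIF targets outside the set showed the same pattern. Of 30 such genes, 23 were highest in concave 1, beside 11.2% of all tested genes. At least 1.5-fold above the median of the other 8 were 23, beside 12.0%, and the list median was 1.06 (log2). The list was chosen with earlier results of these data known, so it is a description and no independent check. The lactate exporter SLC16A3 had 105.1, 5.80 and 3.91 CPM in concave 1, 2 and 3, 17.8, 5.75 and 3.85 CPM in convex 1, 2 and 3, and 24.0, 69.5 and 5.50 CPM in flat 1, 2 and 3, or 18.2-fold above the median. PPFIA4, a scaffold protein, was 9.50-fold above, and PPP1R3C, which targets a phosphatase to glycogen, 6.39-fold. CA12, a carbonic anhydrase, was below the median, at 0.855-fold.

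Neighbouring parts of the pathway showed little of it. Of 14 genes of the oxygen-sensing machinery, 1 was highest in concave 1, 0 were at least 1.5-fold above the median, and the list median was 0.00. Over all tested genes these shares were 11.2% and 12.0%, which also stand beside the lists below. HIF1A had 213.9, 245.2 and 228.7 CPM in concave 1, 2 and 3, 226.6, 238.3 and 271.6 CPM in convex 1, 2 and 3, and 208.6, 128.9 and 269.9 CPM in flat 1, 2 and 3, so concave 1 lay within the range of the others; HIF protein was not measured. ARNT, the HIF partner subunit, was the highest of the list by ratio at 1.32-fold. Of 21 tested genes for other steps of glycolysis, lactate and pyruvate handling, 3 were highest in concave 1 and 1, PDK3 at 1.55-fold, passed the 1.5-fold line. The pyruvate carriers MPC1 and MPC2 were at 0.706-fold and 0.818-fold. Of 12 genes of the ATF4 stress response, 1 was highest in concave 1, the lipoprotein receptor VLDLR at 1.75-fold, which is also on the list of further HIF targets; ATF4 itself was at 0.654-fold, and the list median was -0.37. In the edgeR tests between plate shapes, 0 genes of any of these lists were called.

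**Figure D5:**
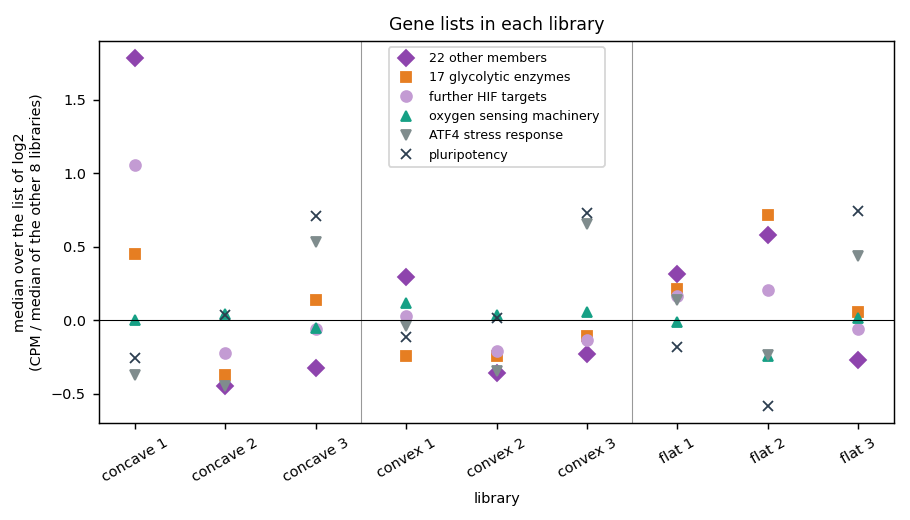
Median over each gene list of log2 (CPM over the median of the other 8 libraries), 1 column of markers per library, with plate shapes separated by grey lines. In concave 1 the 22 other members (1.79), the further HIF targets (1.06) and the enzymes (0.45) lie above 0, the oxygen-sensing list lies at 0.00, and the ATF4 (-0.37) and pluripotency (-0.26) lists lie below it.

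The labelled neuroepithelial state was checked against its markers, and those of other cell types were read beside them. Of 12 pluripotency genes, 0 were highest in concave 1 and 3 were at least 1.5-fold below the median. Over all tested genes, 11.2% were highest there and 7.79% at least 1.5-fold below. Among the 3 was TDGF1, at 1.11 CPM in concave 1 and 1.73 to 192.5 CPM in the other 8. The summed CPM of that list was 4435 in concave 1 and 3868 to 8563 elsewhere. Of 11 tested early neuroectoderm genes, 0 were highest in concave 1; SOX2 had 738.9 CPM there and 470.1 to 821.8 CPM in the others. Forebrain regulators were present at uneven levels: SIX3 had 111.3 CPM in concave 1 and 22.4 to 199.9 CPM in the others, while PAX6 had only 2.86 CPM in concave 1 and 1.09 to 7.10 CPM in the others, and SOX1 2.42 CPM in concave 1 and 1.47 to 4.91 CPM in the others. The pluripotency gene LIN28A was at 1572 CPM in concave 1 and 1345 to 1793 CPM in the others. POU5F1 had 244.2 CPM in concave 1 and 206.2 to 512.4 CPM in the others. DNMT3B had 844.9 CPM in concave 1 and 545.1 to 1335 CPM in the others, whereas NANOG was at 0 to 0.475 CPM. Both lists were thus mixed in all libraries. LIN28A, POU5F1 and DNMT3B were high, beside NANOG near 0. SOX2 and OTX2 were high, beside low PAX6 and SOX1. OTX2 had 257.0 CPM in concave 1 and 266.6 to 318.3 CPM in the others. No library of H9 cells without dual SMAD inhibition was included, so a change from the pluripotent state cannot be read here. Of the markers of other lineages that passed the filter on low counts, 0 of 5 for mesoderm, 1 of 2 for endoderm, 0 of 5 for non-neural ectoderm, 1 of 4 for endothelium and blood and 1 of 4 for fibroblasts were highest in concave 1. The share over all tested genes was 11.2%, and these lists are too short to set against it. By list median, concave 1 was the highest of the 9 libraries for the endothelial and blood list, at 0.36 (log2), followed by flat 1 at 0.33. Summed levels of that list were 35.7 CPM in concave 1 and 25.8 to 36.7 CPM elsewhere, and of the endoderm list 5.30 CPM and 1.87 to 11.8 CPM. The part of these cell types in the members' levels was not tested.

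Some members share sequence with other genes, and the way such reads were counted is not given in the sources used here. BNIP3 has 39 named pseudogenes, which held up to 17.8% of the family's reads in a library, GAPDH has 62, with up to 0.768%, PGAM1 13, with up to 1.82%, and TPI1 4, with up to 2.91%. Exons of PGK1 overlap those of ATP7A on the same strand, exons of PFKFB4 overlap UCN2, and exons of ALDOA overlap the transcript AC093512.2, which had 0.947 to 1.74 CPM. Reads in shared exons may have gone uncounted, so the levels of these genes are uncertain. The strand option of the counting is not known either, so reads of BHLHE40, DDIT4, P4HA2, ENO1 and SLC2A1 cannot be told apart from those of their annotated antisense partners. Exons of HK1, HK2, PFKM, ALDOA, ALDOC, TPI1, GAPDH, PDK1, ANKZF1, ANKRD37, P4HA1, VEGFA, BNIP3L, CA9 and MXI1 also overlap a gene on the opposite strand, so the same limit holds for them.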

How the data were processed

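Polyadenylated RNA was sequenced in 9 libraries of H9 cells, 3 per plate shape. The authors deposited raw gene counts. HISAT2, featureCounts and the build GRCh38 are named by the submitters' processing notes, while tool versions, the gene annotation and the strand option of the counting were not stated. The library kit kept the strand, per the labels' protocols. Columns were matched to libraries by shape and number, with 0 further columns unused. Coordinates and transcript lengths come from GENCODE v29, which held 58274 of the 62710 identifiers, and 62639 had a name.

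From these deposited counts, TMM scaling and log2 fold changes were computed in R 4.3.3 with edgeR 4.0.16. Genes were kept by filterByExpr, and a robust quasi-likelihood model with 1 coefficient per shape was fitted to all 9 libraries (common biological coefficient of variation 0.329). P-values were adjusted by Benjamini-Hochberg over all 23075 genes and called under 0.05. The comparison of number 3 had shape and number as factors. The fit was tested on simulated counts for concave against flat, with 50 changed genes per fold size. These genes were drawn at random from those averaging at least 5 CPM, and not from the members. It called 0% of 1.5-fold, 26% of 2-fold, 96% of 4-fold and 100% of 8-fold changes, with 6 false calls. DESeq2 1.42.0 served as an alternative, and no limma fit was run. CPM on the TMM scale, ratios between libraries, tables and plots were made in Python 3.11.15. The alternatives were other scalings, filters, DESeq2, a threshold of 0.1, a replicate block, a length correction and leaving out libraries.

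Genes were named as the 6 enzymes and 8 other members with the largest ratio in concave 1, the 2 with the smallest ratio in each group, the 2 with the smallest p per comparison, and, of each further list, up to 3 with the largest and 2 with the smallest ratio among those averaging at least 5 CPM; remaining members, and CA9, PAX6, SOX1, NANOG and HIF1A among others, were described after their values were seen. 1 gene that the rule names is not reported here. The members and lists were chosen with earlier results of these data known. Same-numbered libraries deviated together for convex and flat (r = 0.372, 0.397 and 0.62 for numbers 1, 2 and 3). The same held for concave and convex (r = 0.579, 0.29 and 0.612), all above 0.1. Each shape was centred on its own mean and the libraries numbered 3 stood apart in every shape. These values therefore cannot show that the numbers pair the libraries, and the labels state no pairing.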

Additional observations from a re-analysis of the deposited data

How the results depend on the processing

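Scaled by library size only, all genes stood 0.09 higher in concave 1 (log2), against 0.01 with TMM. For concave 1 against the other 8 libraries, every alternative kept the direction: the median over the 22 other members stayed between 1.44 and 1.90 (log2) and that over the 17 enzymes between 0.37 and 0.56, the count of members highest in concave 1 ran from 26 to 33, and the count at least 1.5-fold above from 26 to 30. Members called between plate shapes stayed at 0 under every alternative run. Concave over flat was less firm. The median over the enzymes, -0.03, was 0.015 with library size only and ran from -0.452 to 0.12 with single libraries left out, the ends being concave 1 and concave 2. The median over the 22 other members, 0.39, ran from -0.466 without concave 1 to 0.678 without concave 2 or concave 3, and was -0.341 with concave 1 and flat 2 left out together, a choice made after seeing the data. The members called for number 3, which were 6, ran from 0 without convex 3 to 11 without concave 2, and were 4 with no filter and 9 by DESeq2; the cause was not tested in any of these.

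With a replicate block, 0 members were called in each comparison of plate shapes, with 2, 3, 0 and 1 members at an unadjusted p under 0.05 for concave over flat, convex over flat, concave over convex and the F test, and the concave over flat medians were -0.177 for the enzymes and 0.189 for the other members; the block changed no call. Concave and flat libraries of the same number did not all deviate together (r = 0.379, 0.0211 and 0.338 for numbers 1, 2 and 3). Such correlations cannot show a pairing, and by the labels the libraries share only a number. Isozyme shares moved with the transcript length used: with the longest transcript, the share in concave 1 was 68.0% for SLC2A1, 60.4% for ALDOC, 59.7% for PFKP and 82.0% for P4HA1. The lowest count behind a member's level in concave 1 was 35, for CA9, whose 95% counting interval ran from 0.356 to 0.711 CPM.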
